A study of Mus musculus with 14 samples.

Results

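The genes described are those that build, load and control major histocompatibility complex (MHC) class II molecules in the mouse lung. The list holds 10 genes, namely H2-Aa, H2-Ab1, H2-Eb1, H2-DMa, H2-DMb1, H2-Oa, H2-Ob, Cd74, Ciita and Ctss. It was drawn up by function, but with earlier results of these data known, so no test was made over the list. Of these, 9 were read by at least 1 probe of the array, by 14 probes in all, and 9 of the 14475 genes tested in the series are therefore members. H2-Eb1 matched no probe by its RefSeq transcript and was not analysed here. Each of the 14 probes stood well above the local background on each of the 14 arrays, so no member was lost to the filter on dim probes.

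The lungs came from male C57BL/6N mice, which carried no genetic alteration named in the labels. Each mouse had received, 6 months earlier and into the trachea, phosphate-buffered saline (Ctrl, 3 lungs) or 200 µg of carbon fibre. The fibre was taken before recycling (VCF, 4 lungs), after carbonization (CCF, 3 lungs) or after firing (RCF, 4 lungs). The age of the mice was not given in the sources used here, and total RNA of 1 lung was hybridized to each single-colour array; the design text calls the samples biologically independent. The study asked what each fibre leaves behind in the lung's gene expression.

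MHC class II molecules are pairs of an alpha and a beta chain that carry peptides from engulfed material to the surface of antigen-presenting cells, where CD4+ T cells read them. The chains assemble on the invariant chain, which is cut away in the endosome by proteases, and H2-DM then exchanges the remaining fragment for a peptide while H2-O holds H2-DM in check. In the lung, dendritic cells, B cells and many macrophages carry these molecules, and type 2 alveolar epithelial cells do so too. Because whole lung was measured, a lower signal from fewer cells of a type and from less RNA per cell cannot be told apart.

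A level below is log2 of the background-subtracted probe signal minus log2 of that array's 75th percentile signal, so that 0 is the 75th percentile. Each gene was read at its brightest probe, and levels are compared between lungs for 1 gene and never between genes, since probes differ in brightness. The 75th percentile ran from 724.68 to 1345.6 intensity units per array, and the share of the 41174 probes with signal well above background from 63.1% to 70.6%. The pairwise correlation between arrays ran from 0.978 to 0.992. The lung label matched the array: the surfactant gene Sftpc had levels of at least 8.75 and the club cell gene Scgb1a1 of at least 8.64 on all 14 arrays. On 4 arrays the mean of a list of liver, thymus or adipose genes stood more than 2 above its Ctrl mean. The mean level of 4 liver genes was 3.89 above the Ctrl mean in CCF replicate 2 and 3.85 in RCF replicate 1, while CCF replicate 3 stood 2.74 above it in 4 thymus genes and VCF replicate 1 stood 2.48 above it in 7 adipose genes. There were 4 slides, with a scan session apiece, and the slide with VCF replicate 1, CCF replicate 2 and RCF replicate 2 held no Ctrl array.

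The promoters of the class II genes are known for a shared module, in which an X box is bound by the RFX complex and a Y box by NF-Y, and on which the coactivator CIITA assembles. RefSeq promoter entries on build GRCm38.p6 were used for 7 of the 10 genes. Of these 7, 5 held a match to the Y box letters and 3 a match to the X box letters, and the sequences shown are those of the 4 measured members with a match to either. The 120 bases before the transcription start follow, 5′ to 3′ on the strand of the gene, with matches to the X box letters AGNAACNNATGATG and the Y box letters TGATTGG in capitals. The regions are chr17:34287824-34287943 on the minus strand for H2-Aa, and on the plus strand chr17:34153071-34153190 for H2-DMb1, chr17:34092259-34092378 for H2-Oa and chr17:34238785-34238904 for H2-Ob.
H2-Aa: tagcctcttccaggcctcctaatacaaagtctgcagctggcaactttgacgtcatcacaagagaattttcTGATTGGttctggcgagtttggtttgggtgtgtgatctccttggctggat
H2-DMb1: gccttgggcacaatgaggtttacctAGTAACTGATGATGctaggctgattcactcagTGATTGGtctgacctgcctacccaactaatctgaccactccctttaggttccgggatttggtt
H2-Oa: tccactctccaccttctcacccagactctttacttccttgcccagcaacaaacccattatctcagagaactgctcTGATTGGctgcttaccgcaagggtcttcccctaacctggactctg
H2-Ob: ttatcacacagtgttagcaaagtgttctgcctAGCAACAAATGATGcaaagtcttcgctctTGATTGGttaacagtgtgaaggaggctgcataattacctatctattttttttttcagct

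Counted from the transcription start, the Y box letters began at position -50 in H2-Aa, -63 in H2-DMb1, -45 in H2-Oa and -59 in H2-Ob. The X box letters began at -95 in H2-DMb1 and at -88 in H2-Ob, with 18 and 15 bases between the X and the Y box. H2-Eb1, the member that was not measured, had both motifs as well, 17 bases apart. No match to either was found in the 250 bases before the starts of H2-DMa and Ctss, which says only that these letters are not in those windows. The same holds for the X box letters in H2-Aa and H2-Oa, since a variant of the letters would not be matched. Both strands were searched, and the motifs do not overlap. The Y box letters occurred in 7.23% of all 32851 promoter windows of 250 bases and the X box letters in 0.0213%, which is 7 windows. The X box letters are the bases shared by the 3 promoters of this list that hold it, and these were picked because the Y box letters followed shortly after. Their presence in these 3 promoters, their nearness to the Y box and their rarity are therefore descriptions and no test.

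None of the 9 members differed between any pair of groups at an adjusted p under 0.05 (limma, Benjamini-Hochberg over the 29271 probes tested), nor at an unadjusted p under 0.05. The same held for the fibre groups averaged and set against Ctrl and for the F test of any difference among the 4 groups. As background, 0.00691% of all genes (1 gene) passed the adjusted threshold in VCF against Ctrl and 0.00691% in the average against Ctrl, and 0% passed in CCF and in RCF against Ctrl, in each pair of fibres and in the F test. At the unadjusted threshold the shares over all genes were 5.42% in VCF, 5.64% in CCF and 6.1% in RCF against Ctrl, 5.8% in the average, 3.86% in CCF against VCF, 3.05% in RCF against VCF, 7.84% in RCF against CCF and 5.58% in the F test. The differences that follow are therefore values with their intervals and not calls.

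**Figure D1:**
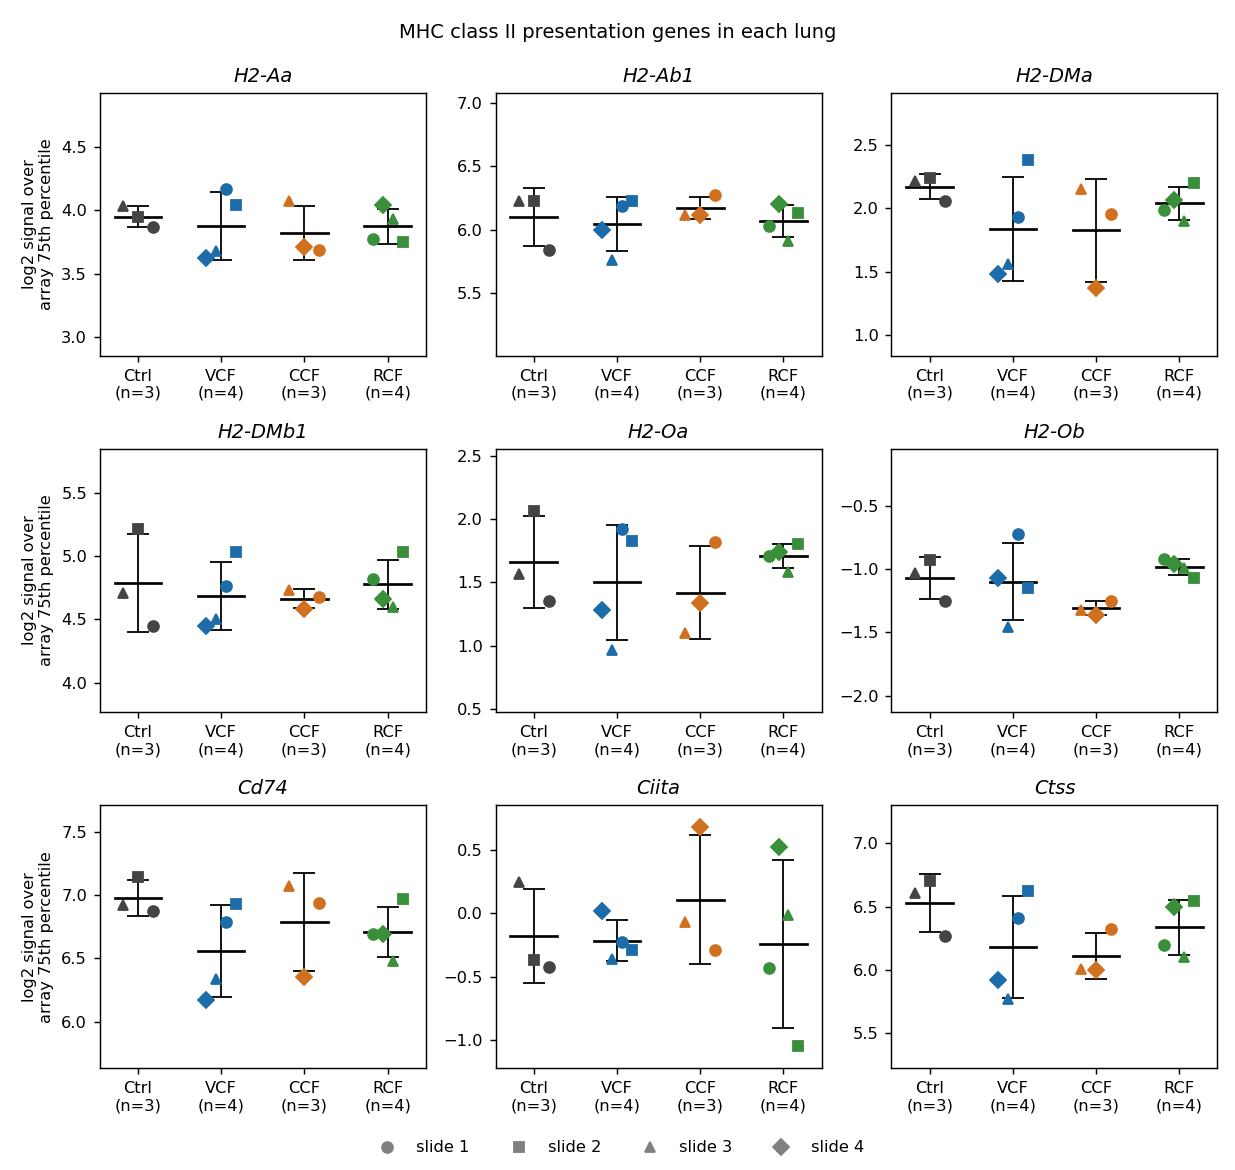
Level of each of the 9 measured genes in each lung (y axis, log2 signal over the array's 75th percentile; each panel spans the same height), by group (x axis). Symbols stand for the 4 slides, the wide bar for the group mean and the whiskers for 1 SD. The groups overlap in nearly every panel, VCF replicates 1 and 2 lie low for most genes, and the spread is widest for Ciita.

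H2-Aa encodes the alpha chain of the mouse class II molecule I-A. Its level was 4.03, 3.95 and 3.87 in the 3 Ctrl lungs, 3.62, 3.68, 4.17 and 4.04 in the VCF lungs, 4.07, 3.71 and 3.69 in the CCF lungs and 3.77, 4.04, 3.93 and 3.75 in the RCF lungs. The Ctrl lungs lay close together and inside the range of the VCF lungs, and all groups overlapped. The difference from Ctrl was -0.07 (SE 0.16) in VCF, -0.13 (SE 0.17) in CCF and -0.08 (SE 0.16) in RCF. The 95% intervals were -0.41 to 0.27, -0.49 to 0.23 and -0.41 to 0.26, so for H2-Aa a change of more than 0.49 in either direction lay outside all of them.

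H2-Ab1 encodes the beta chain of I-A. Its level was 6.23, 6.23 and 5.84 in Ctrl, 6.00, 5.76, 6.19 and 6.23 in VCF, 6.12, 6.12 and 6.27 in CCF and 6.03, 6.20, 5.91 and 6.13 in RCF. Ctrl replicate 3 and VCF replicate 2 were the lowest lungs, and the 14 lungs spanned 0.51. This was the steadiest member within groups, with an SD of 0.17 against a median of 0.23 over all genes tested. The differences from Ctrl were -0.05 (SE 0.14) in VCF, 0.07 (SE 0.15) in CCF and -0.03 (SE 0.14) in RCF.

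H2-Ab1 also allowed the scatter of a single hybridization to be seen, because another of its probes was printed on 10 spots of each array. The SD of log2 signal over those 10 spots was 0.032 to 0.095 per array, with a median of 0.048. Between the 14 arrays the same probe had an SD of 0.20. For this probe the spread between arrays was thus larger than the scatter between spots of 1 array. Each lung had its own array, so the spread between arrays holds labelling and hybridization as well as the lung.

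Cd74 encodes the invariant chain, which fills the groove of new class II molecules and guides them to the endosome. Its level was 6.92, 7.14 and 6.87 in Ctrl, 6.17, 6.34, 6.79 and 6.93 in VCF, 7.07, 6.35 and 6.94 in CCF and 6.69, 6.69, 6.48 and 6.97 in RCF. VCF replicates 1 and 2 and CCF replicate 2 were the lowest, while 1 VCF, 2 CCF and 1 RCF lungs lay within the Ctrl range. The mean was 6.98 ± 0.14 (SD, n = 3) in Ctrl and 6.56 ± 0.36 (SD, n = 4) in VCF. That difference, -0.42 (SE 0.21, 95% interval -0.88 to 0.05), corresponds to 0.75 times the Ctrl signal and was, with that of Ctss in CCF, the largest of the 9 members against Ctrl, at an unadjusted p of 0.076 and an adjusted p of 0.675 in limma. In CCF and RCF the differences of Cd74 were -0.19 (SE 0.23) and -0.27 (SE 0.21). The slide means of Cd74 were 6.82, 7.01, 6.70 and 6.40 (unadjusted p 0.0445, adjusted p 0.202 for the slide in limma). VCF replicate 1 and CCF replicate 2 lay on slide 4, which held no Ctrl array. Within slides 1 to 3 the VCF difference of Cd74 was -0.07, -0.21 and -0.58, on 1 lung a group. The CCF value for Cd74 rested on 1 lung, since without CCF replicate 2 it was 0.03, while without CCF replicate 1 it was -0.33. Leaving out 1 lung at a time moved the VCF value between -0.54 and -0.29.

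Ctss encodes cathepsin S, the protease that makes the last cuts of the invariant chain. Its level was 6.61, 6.70 and 6.27 in Ctrl, 5.92, 5.77, 6.41 and 6.62 in VCF, 6.01, 6.00 and 6.32 in CCF and 6.20, 6.50, 6.10 and 6.54 in RCF. In CCF, 2 lungs lay below every Ctrl lung and the third within the Ctrl range. The difference was -0.42 (SE 0.22, 95% interval -0.91 to 0.07) in CCF, or 0.748 times the Ctrl signal, with an unadjusted p of 0.0858 and an adjusted p of 0.785 in limma. The Ctss difference was -0.35 (SE 0.21) in VCF and -0.19 (SE 0.21) in RCF. The VCF value was -0.21 without VCF replicate 2 and -0.49 without VCF replicate 4. Leaving out 1 lung at a time moved the CCF difference between -0.55 and -0.33.

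H2-DMa and H2-DMb1 encode the chains of the peptide editor H2-DM. H2-DMa stood at 2.22, 2.24 and 2.06 in Ctrl, 1.48, 1.56, 1.93 and 2.38 in VCF, 2.15, 1.37 and 1.96 in CCF and 1.99, 2.07, 1.90 and 2.20 in RCF. VCF replicates 1 and 2 and CCF replicate 2 were again the lowest lungs, while the highest of all 14 was VCF replicate 4. The H2-DMa differences from Ctrl were -0.34 (SE 0.22) in VCF, -0.35 (SE 0.24) in CCF and -0.14 (SE 0.22) in RCF. The CCF value for H2-DMa rested on 1 lung, since without CCF replicate 2 it was -0.12 and without CCF replicate 1 it was -0.51. The VCF value was -0.22 without VCF replicate 1 and -0.52 without VCF replicate 4.

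H2-DMb1 stood at 4.71, 5.21 and 4.45 in Ctrl, 4.45, 4.50, 4.76 and 5.03 in VCF, 4.73, 4.58 and 4.68 in CCF and 4.82, 4.66, 4.60 and 5.03 in RCF. The highest lung of Ctrl, of VCF and of RCF each lay on slide 2. The slide means of H2-DMb1 were 4.68, 5.09, 4.63 and 4.56, with an unadjusted p of 0.00947 and an adjusted p of 0.108 for the slide in limma, where 1.33% of all genes passed for slide. Its differences from Ctrl were -0.11 (SE 0.19) in VCF, -0.13 (SE 0.20) in CCF and -0.01 (SE 0.19) in RCF. The neighbouring copy H2-DMb2 has a near-identical sequence, so that its probe and those of H2-DMb1 may read both. It differed from Ctrl by -0.10 (SE 0.26) in VCF, -0.14 in CCF and 0.14 in RCF.

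H2-Oa and H2-Ob encode the chains of H2-O, the inhibitor of H2-DM, which is found chiefly in B cells. H2-Oa stood at 1.57, 2.06 and 1.35 in Ctrl, 1.28, 0.97, 1.92 and 1.83 in VCF, 1.10, 1.34 and 1.82 in CCF and 1.71, 1.74, 1.58 and 1.80 in RCF. The RCF lungs lay close together for H2-Oa, with an SD of 0.09 against 0.36 to 0.45 in the other groups, and all groups overlapped. The H2-Oa differences from Ctrl were -0.16 (SE 0.25) in VCF, -0.24 (SE 0.27) in CCF and 0.05 (SE 0.25) in RCF. Leaving out 1 lung at a time moved the VCF value between -0.32, without Ctrl replicate 3, and 0.04, without Ctrl replicate 2, and the CCF value between -0.44, without CCF replicate 3, and -0.04, without Ctrl replicate 2.

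H2-Ob stood at -1.03, -0.93 and -1.25 in Ctrl, -1.07, -1.46, -0.72 and -1.15 in VCF, -1.32, -1.36 and -1.25 in CCF and -0.92, -0.96, -0.99 and -1.07 in RCF. Every CCF lung lay below every RCF lung and, by less than the last digit printed, below every Ctrl lung. Over all genes, the arrays of CCF lay wholly below those of Ctrl in 6.16%, and those of RCF wholly above those of CCF in 6.94%, beside 1 of 9 members in each comparison. The RCF minus CCF difference of H2-Ob was 0.32 (SE 0.15, 95% interval -0.00 to 0.65), with an unadjusted p of 0.0529 and an adjusted p of 0.642 in limma. The CCF minus Ctrl difference was -0.24 (SE 0.16).

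Ciita encodes the coactivator without which class II genes are not transcribed. Its level was 0.25, -0.37 and -0.42 in Ctrl, 0.02, -0.36, -0.23 and -0.29 in VCF, -0.07, 0.68 and -0.29 in CCF and -0.43, 0.52, -0.01 and -1.05 in RCF. CCF replicate 2 was the highest lung and RCF replicate 4 the lowest, and the RCF lungs alone spanned nearly the whole range. The differences from Ctrl were -0.04 (SE 0.33) in VCF, 0.29 (SE 0.36) in CCF and -0.06 (SE 0.33) in RCF. The CCF value rested on 1 lung, since without CCF replicate 2 it was -0.00, while without Ctrl replicate 1 it was 0.50. The interval for CCF, -0.49 to 1.06, was the widest of any member against Ctrl, and the SD within groups, 0.47, the largest.

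Ciita also moved with the arrays. Its slide means were -0.34, -0.57, -0.05 and 0.41 (unadjusted p 0.0113, adjusted p 0.115 for the slide in limma). Over the 14 arrays it ran against the logarithm of the array's 75th percentile signal, with r -0.74 and rho -0.77 (permutation p 0.00119 and 0.00202, adjusted 0.0178 and 0.0252 over 162 relations). Without the 2 lungs farthest from the median Ciita level, CCF replicate 2 and RCF replicate 4, r was -0.72. After slide means had been subtracted it was -0.17, so the relation lay between slides and not within them. The part of array brightness in the Ciita values was not tested.

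**Figure D2:**
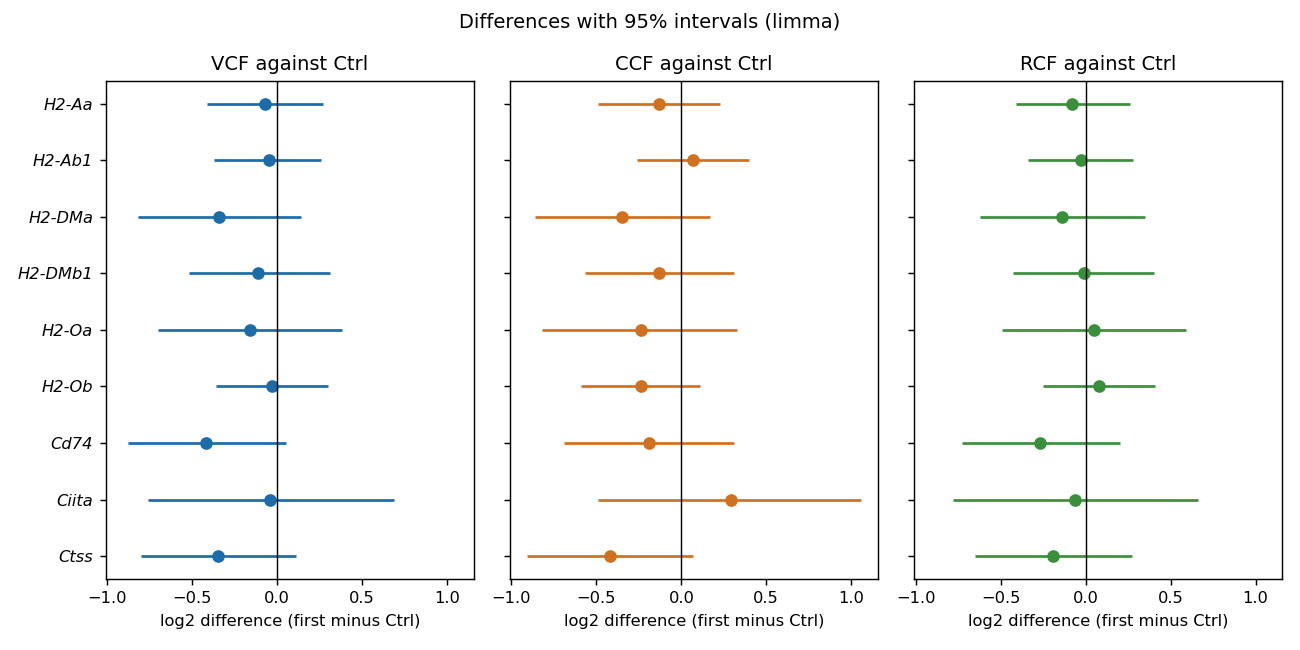
Difference from Ctrl (x axis, log2; the first-named group minus Ctrl) for each of the 9 genes (y axis) in VCF, CCF and RCF. Points are limma estimates over 4 VCF, 3 CCF and 4 RCF lungs against the same 3 Ctrl lungs, and bars are 95% intervals. Every interval spans 0, and the points for H2-DMa, Cd74 and Ctss lie farthest to the left in VCF.

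Side by side, the differences from Ctrl were below 0 for 9 of 9 members in VCF, 7 of 9 in CCF and 7 of 9 in RCF, beside 54.2%, 58.7% and 50.3% of all genes. These counts read each gene at its brightest probe. The H2-Ab1 probe of 10 spots gave 0.03, 0.15 and 0.15 in VCF, CCF and RCF, and its remaining probe -0.16, -0.34 and 0.24. In RCF the other probe gave 0.01 for H2-DMb1 and -0.01 for H2-Oa. The signs of H2-Aa, and of H2-DMb1 and H2-Oa in VCF and CCF, were the same by either probe. The median over the members was -0.11 in VCF, -0.19 in CCF and -0.06 in RCF, and over all genes it was -0.02, -0.04 and -0.00. These comparisons share the 3 Ctrl lungs, and the members vary together between lungs, so the counts are no separate pieces of evidence. Leaving out some single lung turned the sign for 6 of 9 members in VCF, 4 in CCF and 5 in RCF. The members that kept their sign against Ctrl in VCF under every such omission were H2-DMa, Cd74 and Ctss. With the fibre groups averaged, 8 of 9 members were below Ctrl beside 56% of all genes, with medians of -0.09 and -0.02.

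Within slides the VCF median took either sign. It was 0.30 on slide 1, where Ctrl replicate 3 met VCF replicate 3, -0.08 on slide 2, and -0.58 on slide 3, where Ctrl replicate 1 met VCF replicate 2. For CCF it was 0.08 on slide 1 and -0.11 on slide 3, and for RCF it was -0.01, -0.17 and -0.26 on slides 1 to 3. Each of these within-slide values rests on 1 lung a group.

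Between the fibres, the median member difference was -0.02 in CCF against VCF, 0.11 in RCF against VCF and 0.12 in RCF against CCF, where the medians over all genes were -0.01, 0.01 and 0.03. RCF was above VCF for 7 of 9 members (52.6% of all genes) and above CCF for 6 of 9 (55.4% of all genes). The 3 fibre forms were given at the same dose and time. For RCF against CCF the 95% intervals of the 9 members were between -0.41 to 0.21 for H2-Ab1, the narrowest, and -1.07 to 0.38 for Ciita, the widest.

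Single lungs deviated across many members at once. VCF replicate 2 was below the 14-lung median for 9 of 9 members, VCF replicate 1 and CCF replicate 2 for 8 of 9, and Ctrl replicate 3 for 7 of 9. Ctrl replicates 1 and 2 were below it for 1 of 9 each. The mean deviation of the 9 members from their 14-lung means was -0.36 in VCF replicate 2, -0.24 in VCF replicate 1, and 0.25 in Ctrl replicate 2. The VCF group thus held lungs at both ends, since VCF replicates 3 and 4 were below the median for 2 members each and deviated by 0.13 and 0.18.

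How far the members rose and fell together from lung to lung was examined over the 36 pairs of members, with 100000 permutations. Pearson's r was above 0 in 30 pairs, and 12 pairs passed an adjusted permutation p of 0.05, 11 of them also by rank. The closest pair by r was H2-DMa with Cd74, with r 0.89 and rho 0.81 (permutation p 7e-05 and 0.00098, adjusted 0.00252 and 0.0118). By rank the closest was H2-DMa with Ctss. H2-Oa with Ctss had r 0.85 and rho 0.82 (permutation p 0.00021 and 0.00064, adjusted 0.00264 and 0.0115), and H2-DMa with Ctss had r 0.81 and rho 0.85 (permutation p 0.00022 and 0.00022, adjusted 0.00264 and 0.00792).

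The chains of H2-O went together, H2-Oa with H2-Ob at r 0.74 and rho 0.64 (permutation p 0.00267 and 0.0154, adjusted 0.0146 and 0.0426). The chains of H2-DM had r 0.69 and rho 0.73 (permutation p 0.00703 and 0.00458, adjusted 0.023 and 0.0183). The chains of I-A did not pass: H2-Aa with H2-Ab1 had r 0.42 and rho 0.39 (permutation p 0.14 and 0.171, adjusted 0.219 and 0.229). All 6 negative pairs were among the 8 with Ciita, and after slide means had been subtracted r was above 0 in 36 of 36 pairs.

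For each pair the 2 lungs farthest from the median of the first gene were then left out, which removed VCF replicate 1 or 2 from many pairs and left 12 lungs. Of the 36 pairs, 2 then passed, H2-DMa with Cd74 at r 0.82 and H2-DMa with Ctss at r 0.80, while r in the other 10 lay between 0.48 and 0.76. Some of these hardly moved, such as H2-Ab1 with Ctss, from 0.71 to 0.69 (adjusted permutation p 0.0736), and H2-DMa with H2-DMb1, from 0.69 to 0.67 (adjusted permutation p 0.0826), and the farthest drop was that of H2-Ab1 with H2-Oa, from 0.69 to 0.48. All of these rest on 12 lungs in place of 14. For the 2 pairs that passed, r with group means subtracted was 0.95 and 0.75, and with slide means subtracted 0.80 and 0.79. All relations share the array and its scaling.

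**Figure D3:**
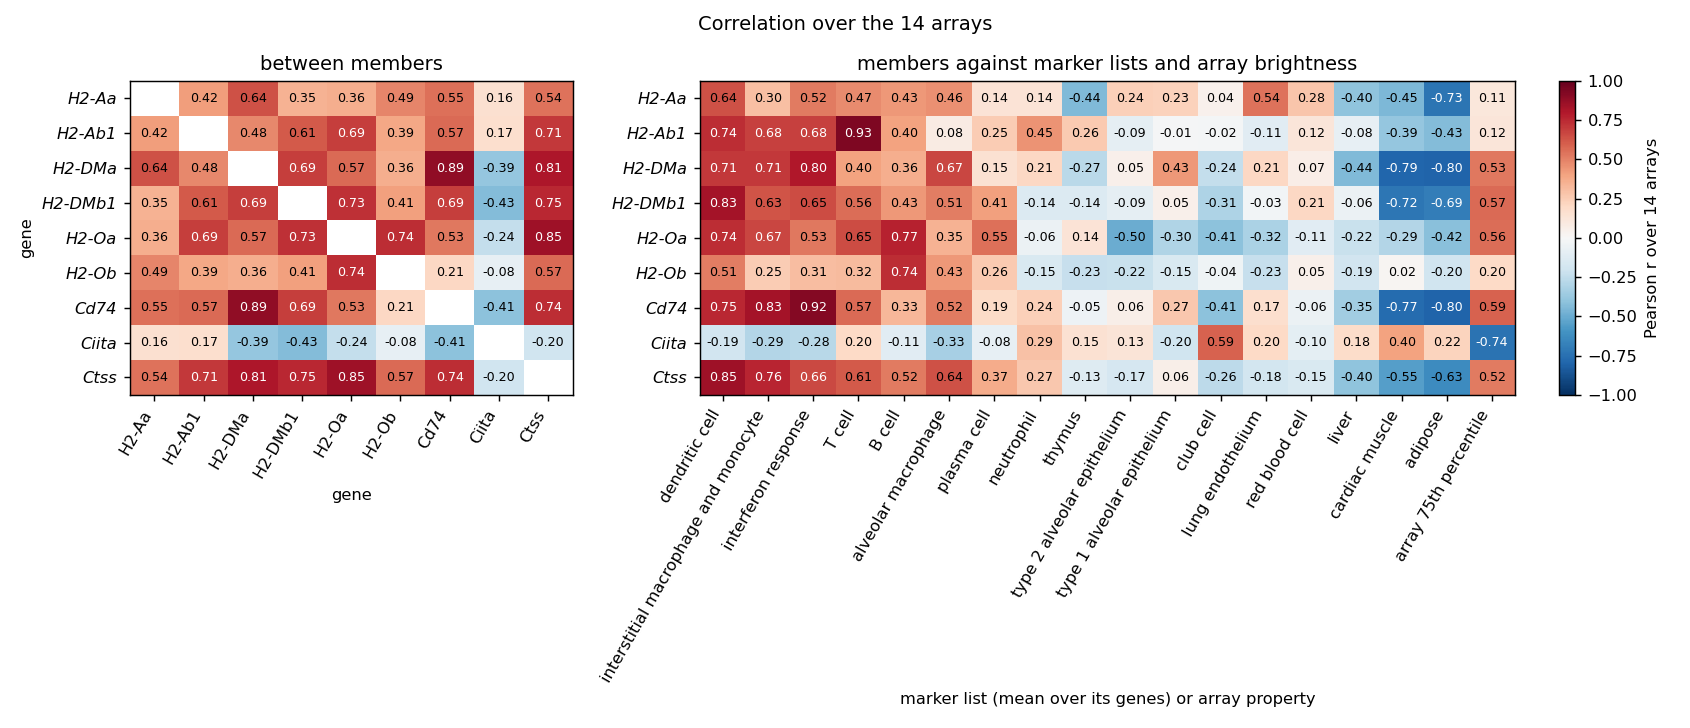
Pearson's r over the 14 arrays between the 9 genes (left) and between each gene and the mean level of 17 marker lists or the array's 75th percentile (right). Red stands for r above 0 and blue for r below 0. Ciita is the one gene with mostly blue cells on the left, and the adipose and cardiac muscle columns are blue for most genes.

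Marker lists of the cells a lung may hold were set beside the members in the same way. For H2-Ab1 against 17 lists, 4 relations passed at an adjusted permutation p of 0.05. H2-Ab1 was read here at its brightest probe, whose r with its other probes was 0.76 and 0.31. Those other probes were not set against the lists. With the mean of 11 T cell genes, such as Cd3d and Cd6, H2-Ab1 had r 0.93 and rho 0.85 (permutation p 3e-05 and 0.00026, adjusted 0.00051 and 0.00365), and r 0.86 without Ctrl replicate 3 and VCF replicate 2. It was 0.93 both with group means and with slide means subtracted. With 12 dendritic cell genes, such as Naaa and Itgax, H2-Ab1 had r 0.74 and rho 0.78 (permutation p 0.00228 and 0.00149, adjusted 0.0194 and 0.00844), and r 0.65 without those 2 lungs.

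The other lists with which H2-Ab1 passed were 12 genes of interstitial macrophages and monocytes, at r 0.68 and rho 0.83 (permutation p 0.00727 and 0.00043, adjusted 0.0312 and 0.00365), and 14 interferon response genes, at r 0.68 and rho 0.68 (permutation p 0.00735 and 0.00925, adjusted 0.0312 and 0.0393). Without the 2 lungs r was 0.73 for the interstitial macrophage and monocyte genes and 0.62 for the interferon response genes. Over those 12 lungs the T cell relation passed (adjusted permutation p 0.011), and the other 3 had adjusted permutation p of 0.0636 to 0.128. With 14 B cell genes H2-Ab1 had r 0.40 and rho 0.32 (permutation p 0.151 and 0.265, adjusted 0.356 and 0.41).

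The same was computed, after the data had been seen, for all 9 members against the 17 lists and the array's 75th percentile, a family of 162 relations of which 24 passed and 21 also passed by rank. Cd74 followed the interferon response genes, with r 0.92 and rho 0.89 (permutation p 3e-05 and 9e-05, adjusted 0.00243 and 0.00729). Without VCF replicates 1 and 2 r was 0.86, and with slide means subtracted it was 0.90. Cd74 is itself known to be induced by interferon gamma. Interstitial macrophage and monocyte genes passed with H2-Ab1, H2-DMa, Cd74 and Ctss, and for Cd74 r was 0.83 and rho 0.89 (permutation p 0.00027 and 8e-05, adjusted 0.00729 for both), and 0.76 without VCF replicates 1 and 2.

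H2-Oa and H2-Ob were the 2 members that passed with the 14 B cell genes, at r 0.77 and rho 0.75 for H2-Oa (permutation p 0.00132 and 0.00291, adjusted 0.0178 and 0.0304) and r 0.74 and rho 0.71 for H2-Ob (permutation p 0.00237 and 0.00501, adjusted 0.024 and 0.0373). Without the 2 farthest lungs, r was 0.62 for H2-Oa and 0.48 for H2-Ob. Dendritic cell genes passed with 6 members, among them Ctss at r 0.85 and rho 0.84 (permutation p 0.00017 and 0.0003, adjusted 0.00713 and 0.0081) and H2-DMb1 at r 0.83 and rho 0.83 (permutation p 0.00019 and 0.00043, adjusted 0.00713 and 0.00871). Whether 1 member follows a list more closely than another was not tested.

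Adipose and cardiac muscle genes ran the other way with most members. Adipose genes had r below 0 with 8 of 9 members and passed with H2-Aa, H2-DMa, H2-DMb1 and Cd74. For Cd74 r was -0.80 and rho -0.75 (permutation p 0.00034 and 0.00319, adjusted 0.00787 and 0.0304), and -0.69 without VCF replicates 1 and 2. Cardiac muscle genes had r below 0 with 7 of 9 members and passed with H2-DMa, H2-DMb1 and Cd74. For H2-DMa r was -0.79 and rho -0.88 (permutation p 0.00125 and 0.00014, adjusted 0.0178 and 0.00756).

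The mean level of the 7 adipose genes ran from -1.63 to -0.61 in Ctrl, -1.60 to 1.31 in VCF, -1.77 to -0.26 in CCF and -1.52 to -0.65 in RCF. That of the 7 cardiac muscle genes ran from 0.97 to 3.16, 0.45 to 4.67, 0.64 to 4.70 and 1.07 to 4.19 in the same order. VCF replicate 1 and CCF replicate 2, which were low in Cd74 and H2-DMa, had cardiac muscle means of 2.26 and 2.28 above that of Ctrl. VCF replicates 2 and 3 stood 1.29 and 1.48 above it as well, and VCF replicate 4 lay below it. Without VCF replicate 1, the lung highest in adipose genes, the VCF difference was -0.29 for Cd74 and -0.26 for Ctss. The part of these tissues in the member differences was not tested.

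**Figure D4:**
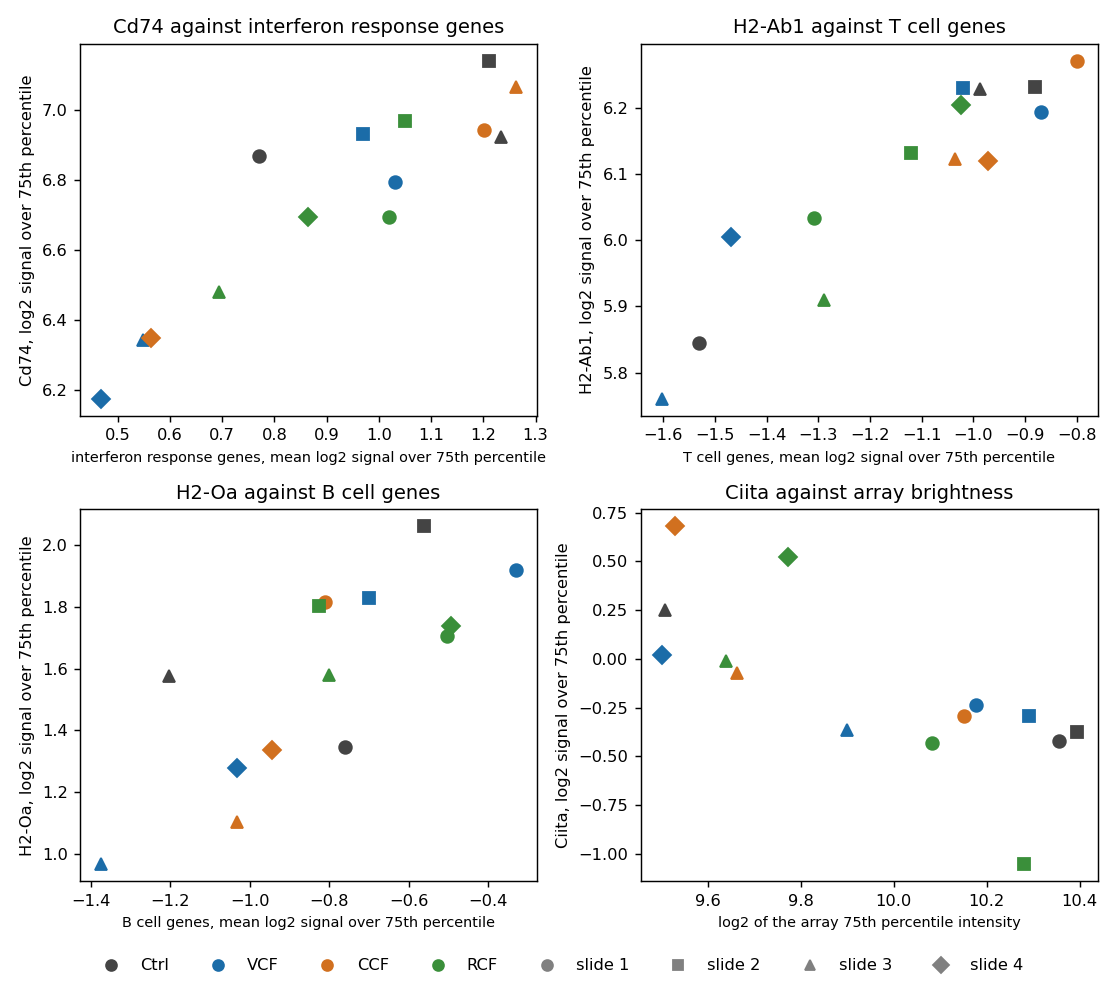
Each point is 1 lung, coloured by group and shaped by slide. The panels plot Cd74 against the mean of 14 interferon response genes, H2-Ab1 against 11 T cell genes, H2-Oa against 14 B cell genes, and Ciita against log2 of the array's 75th percentile intensity (all axes log2). The first 3 panels rise and the last falls, and in each the groups are mixed along the line.

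Alveolar macrophages clear inhaled particles and carry class II at a low level. The mean of 14 alveolar macrophage genes, such as Chil3 and Krt19, was 2.52 to 2.69 in the Ctrl lungs, 2.18 to 2.42 in VCF, 1.98 to 2.27 in CCF and 2.27 to 2.45 in RCF, so every fibre lung lay below every Ctrl lung. This list shares Cidec with the adipose list. All 14 genes had differences below 0 in each fibre group against Ctrl, beside 54.2%, 58.7% and 50.3% of all genes in VCF, CCF and RCF. No gene of the list passed the adjusted threshold, and 4, 8 and 4 of the 14 had an unadjusted p under 0.05, beside 5.42%, 5.64% and 6.1% of all genes. Of the 9 members, 0 passed by r with this list over the 14 arrays, where r ran from -0.33 for Ciita to 0.67 for H2-DMa. By rank H2-DMa and Ctss had rho 0.73 each (adjusted permutation p 0.0359 and 0.0369). Their adjusted permutation p of r was 0.0584 and 0.0727. The part of this list in the member differences was not tested.

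Interferon response genes, which followed Cd74, had mean levels of 0.77 to 1.23 in Ctrl, 0.47 to 1.03 in VCF, 0.56 to 1.26 in CCF and 0.69 to 1.05 in RCF. Dendritic cell genes had -1.13 to -0.72, -1.27 to -0.76, -1.02 to -0.96 and -1.06 to -0.76, T cell genes -1.53 to -0.88, -1.60 to -0.87, -1.04 to -0.80 and -1.31 to -1.02, and B cell genes -1.20 to -0.56, -1.37 to -0.33, -1.03 to -0.81 and -0.83 to -0.49, in the same order. The groups overlapped in each of these 4 lists. The 12 interstitial macrophage and monocyte genes had 1.78 to 2.30 in Ctrl, 1.44 to 1.94 in VCF, 1.51 to 2.35 in CCF and 1.66 to 1.95 in RCF. Their differences from Ctrl were below 0 for 12 of 12 in VCF, 8 in CCF and 10 in RCF, beside 54.2%, 58.7% and 50.3% of all genes. The medians of those differences were -0.41, -0.28 and -0.37. None of those 12 passed the adjusted threshold. No gene of the interferon, dendritic, T cell or B cell list passed the adjusted threshold against Ctrl.

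Red blood cell genes differed in the other direction. The mean of 6 such genes was -1.62 to -0.43 in Ctrl, 0.09 to 0.84 in VCF, -0.66 to 0.96 in CCF and -0.17 to 0.37 in RCF, so every VCF and RCF lung lay above every Ctrl lung. All 6 had differences above 0 in each fibre group, with medians of 1.41 in VCF, 0.88 in CCF and 1.02 in RCF. Over all genes 54.2%, 58.7% and 50.3% had differences below 0. Of the 6, 0 passed the adjusted threshold, while 4, 3 and 3 had an unadjusted p under 0.05, beside 5.42%, 5.64% and 6.1% of all genes. Over the 14 arrays 0 of 9 members passed with this list, where r ran from -0.15 for Ctss to 0.28 for H2-Aa. Its part in the member differences was not tested.

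The 8 genes most like the core of class II were found by ranking 14400 genes by r with the mean of H2-Aa, H2-Ab1 and Cd74 over the 14 arrays. They were Trpv2 (0.93), Lcp1 (0.92), Ifi47 (0.90), Cd96 (0.90), Fam111a (0.90), Evl (0.89), Cd2 (0.89) and Nkg7 (0.88). Lcp1 encodes an actin bundler of leukocytes, Ifi47 an interferon-inducible GTPase, Cd2 and Cd96 surface proteins of T and NK cells, and Nkg7 a granule protein of cytotoxic lymphocytes. With slide means subtracted their r ran from 0.85 for Evl to 0.95 for Trpv2. Over all genes the median r was 0.03, and the 5th and 95th percentiles were -0.59 and 0.61.

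Among the members that did not enter that mean, H2-DMa had r 0.86, Ctss 0.81, H2-DMb1 0.69, H2-Oa 0.63 and H2-Ob 0.40. Ciita stood at -0.12. The values of H2-Ob and Ciita thus lay between the 5th and 95th percentiles over all genes, and that of H2-Oa just above the 95th. These likenesses are descriptions over the same 14 lungs.

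Around the members, 23 genes of class II transcription and its signals were listed, and 22 of them were tested. None of the 22 passed the adjusted threshold against Ctrl, and 11 were below 0 in each of VCF, CCF and RCF, beside 54.2%, 58.7% and 50.3% of all genes. Rfx5, a subunit of the RFX complex that binds the X box, differed by -0.40 (SE 0.19, adjusted p 0.635 in limma) in VCF, -0.11 (SE 0.21) in CCF and -0.14 (SE 0.19) in RCF. Without Ctrl replicate 3 the Rfx5 values were -0.19, 0.10 and 0.07, and without Ctrl replicate 1 they were -0.64, -0.35 and -0.38. Creb1, which binds beside RFX, differed by 0.54 (SE 0.27), 0.50 (SE 0.28) and 0.36 (SE 0.27). These rested largely on Ctrl replicate 1, without which they were 0.23, 0.19 and 0.05. Leaving out other single lungs gave Creb1 values of up to 0.74, 0.67 and 0.53. Irf1, a transcription factor that carries the interferon gamma signal to Ciita, differed by 0.15 in VCF, 0.06 in CCF and 0.20 in RCF. Il4, a cytokine that raises class II in B cells, had the smallest F test p of the list (0.0578, adjusted 0.676 in limma) and was lowest in CCF, at -4.79 ± 0.25 (SD, n = 3) against -4.18 ± 0.45 (SD, n = 3) in Ctrl. Without Ctrl replicate 1 that difference went from -0.61 to -0.36, and without Ctrl replicate 3 to -0.81.

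All 16 listed genes of endosomal processing were tested. None passed the adjusted threshold, and 11 were below 0 in VCF, 13 in CCF and 12 in RCF, beside 54.2%, 58.7% and 50.3% of all genes. Ifi30 encodes the endosomal reductase that opens disulfide bonds of antigens. Its level was 3.58, 3.53 and 3.29 in Ctrl, 2.55, 2.80, 3.12 and 3.15 in VCF, 3.29, 2.68 and 3.20 in CCF and 2.66, 2.95, 3.03 and 2.93 in RCF. Every VCF and RCF lung lay below every Ctrl lung, as 3.27% and 4.7% of all genes did in these comparisons, and CCF overlapped with Ctrl. The differences of Ifi30 were -0.56 (SE 0.18, adjusted p 0.4 in limma) in VCF, -0.41 (SE 0.20) in CCF and -0.58 (SE 0.18, adjusted p 0.696 in limma) in RCF. Ctsh, a cathepsin, differed by -0.25 (SE 0.13), -0.18 (SE 0.14) and -0.33 (SE 0.13), and Sppl2a, which clears the stub of the invariant chain, by 0.14 (SE 0.39), 0.88 (SE 0.42) and -0.13 (SE 0.39). The CCF value for Sppl2a was 0.25 without CCF replicate 3, the lung highest in thymus genes, and the CCF value for Ifi30 was -0.22 without CCF replicate 2.

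Class I presentation, the sister pathway for peptides made inside the cell, was read by 18 of 22 listed genes, and 6 of 8 listed costimulatory genes were tested. None passed the adjusted threshold against Ctrl in either list. Median differences of class I genes were -0.04 in VCF, -0.05 in CCF and -0.03 in RCF, and those of costimulatory genes -0.16, -0.24 and -0.09. B2m, the light chain of class I, differed by -0.08 (SE 0.21), -0.13 (SE 0.22) and -0.25 (SE 0.21), and Cd86, a costimulatory ligand, by -0.23 (SE 0.21), -0.36 (SE 0.23) and -0.31 (SE 0.21). Without Ctrl replicate 2 the Cd86 values were -0.01, -0.14 and -0.08, and those of B2m 0.10, 0.05 and -0.06. Other omissions enlarged them. Without Ctrl replicate 3 the Cd86 values were -0.45, -0.58 and -0.53, and without Ctrl replicate 1 those of B2m were -0.24, -0.29 and -0.40. Of the other class II locus genes, H2-Eb2 was not well above background on at least 3 arrays by either of its probes and was not tested.

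Members with more than 1 probe were compared between their probes over the 14 arrays, in 6 pairs. For H2-Oa r was 0.94 and rho 0.93 (adjusted permutation p 6e-05 for both, from the smallest p that the permutations can give, 1e-05). For H2-Aa r was 0.80 and rho 0.80 (permutation p 0.00081 and 0.00098, adjusted 0.00243 and 0.00196), and for H2-DMb1 r was 0.47 and rho 0.54 (permutation p 0.0913 and 0.0496, adjusted 0.11 and 0.0496). The 3 pairs of H2-Ab1 probes had r 0.76, 0.58 and 0.31 and rho 0.70, 0.84 and 0.68 (adjusted permutation p of r 0.00314, 0.0318 and 0.282). The H2-Ab1 probe in the last of these pairs that was printed once and is less bright stood apart in CCF replicate 2 and VCF replicate 1, and without these lungs its r with the brightest probe was 0.70 in place of 0.31. By that probe H2-Ab1 differed from Ctrl by -0.16 in VCF, -0.34 in CCF and 0.24 in RCF, with unadjusted limma p of 0.729, 0.495 and 0.601. The probe printed on 10 spots gave 0.03 in VCF, 0.15 in CCF and 0.15 in RCF, so the sign of the H2-Ab1 difference varied between its probes in each comparison.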

How the data were processed

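Per the file headers, the authors quantified each spot with Agilent Feature Extraction 10.7.3.1, and the deposited intensity is that software's background-subtracted signal, without scaling between arrays. A further deposited set of values is on a log2 scale. Of its values for 27496 probes, 99.8% equal, within 0.01, the value computed here up to a constant for each array. Values used were log2 of the processed signal minus each array's 75th percentile. Control spots (1639) and 61 to 254 outlier-flagged values per array were left out, spots of 1 probe were averaged, and no spot was saturated. Probes well above background on at least 3 of 14 arrays (29271) were tested.

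Gene symbols came from RefSeq transcripts on GRCm38.p6, which named 24854 of 41174 probes (17187 genes). The fit used limma 3.58.1 (R 4.3.3) with the 4 groups together (10 residual and 2.39 prior degrees of freedom), two-sided. Correlations used Python 3.11.15, numpy 2.4.6, pandas 2.3.3 and scipy 1.17.1 with two-sided permutation tests, and figures matplotlib 3.10.9. p-values measure the spread between these lungs. On simulated arrays for VCF against Ctrl (29147 probes), 63% of changes of 1 and 83% of changes of 2 (log2) were found, and 4 unchanged probes were called. In them 100 genes were changed at each size, with noise drawn separately for each probe. Changes as small as the member differences were not simulated, so these shares do not tell how often those would be found.

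The members and gene lists were chosen with earlier results of these data known. Every member is described. Of the other pathway lists the text names genes among the 3 of smallest F test p, plus a panel (Rfx5, Irf1, Ifi30, B2m, Cd86, and another gene not reported here), the 8 genes most like the class II core, and the brightest 2 of the marker lists described. H2-DMb2 and H2-Eb2 are the locus genes listed. Alternatives were normexp background correction, quantile, cyclic loess and median scaling, the deposited table, other filters, slide, position or replicate number as a block, array weights, a trended robust prior, only the groups compared, the mean over a gene's probes, a threshold of 0.1, and leaving arrays out (for genes that are no members, chosen after the data had been seen). Normexp used median spot intensities with an offset of 50, the files holding no mean.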

Additional observations from a re-analysis of the deposited data

How the results depend on the processing

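In 29 other fits, 0 members passed in any comparison in 239 of 239 counts. Over all probes, at most 16 passed the 0.05 threshold in any group comparison of those fits. That was of 29271 in VCF against Ctrl without CCF replicate 1, so 0 passing says little about the members. Of 464 values of 16 single member differences in those fits, 1 changed sign: Ctss in RCF against CCF was -0.01 with normexp, and the cause was not tested. The 16 were picked as larger than their SE in the main fit, so differences nearer 0 were not followed. Over all 9 members, leaving out some single lung turned the sign for 6 in VCF, 4 in CCF and 5 in RCF against Ctrl. Within slides, with 1 to 3 lungs on a side, 9 of 45 values of those 16 differences changed sign. Among them were Ctss in VCF against Ctrl (0.14), H2-DMa in VCF against Ctrl (0.13) and Ctss in CCF against Ctrl (0.05). The median member difference in CCF against VCF moved to 0.24 with normexp, which put the median of all probes at -0.27 there, -0.23 in CCF against Ctrl and 0.22 in RCF against CCF. Within slides, on 1 lung a group, the median took other values: in VCF against Ctrl 0.30 on slide 1 and -0.58 on slide 3, in CCF against Ctrl 0.08 on slide 1, in RCF against Ctrl -0.26 on slide 3, in the average against Ctrl 0.10 on slide 1 and -0.30 on slide 3, in CCF against VCF 0.29 on slide 3, in RCF against VCF -0.19, -0.08, 0.34 and 0.46 on slides 1 to 4, and in RCF against CCF -0.11, -0.12 and 0.35 on slides 1, 3 and 4. Leaving out each lung in turn gave medians of -0.28 to -0.01 in VCF, -0.30 to -0.09 in CCF, -0.18 to -0.03 in RCF and -0.25 to -0.03 in the average against Ctrl, -0.13 to 0.09 in CCF against VCF, 0.02 to 0.23 in RCF against VCF and -0.00 to 0.18 in RCF against CCF. With the replicate block, 0 members passed and the medians against Ctrl were -0.21 in VCF, -0.19 in CCF and -0.08 in RCF. Lungs of 1 number shared only that number (median r of their deviations -0.04 over 19 pairs, from -0.53 to 0.42; 5 of 14 correlated best with it). Median scaling put the median of all probes at -0.11 in VCF and -0.10 in CCF, and the member medians were then -0.23 and -0.28. Without the 2 lungs farthest from the median, 2 of 36 member pairs and 1 of 17 H2-Ab1 relations passed, on 12 lungs and with r of 0.48 to 0.76 in the 10 pairs that no longer passed. Without the 4 arrays highest in liver, thymus or adipose genes CCF has 1 lung. Precision is limited by 3 to 4 lungs a group, and the faintest member, H2-Ob, had a median signal of 464 intensity units, well above background on all 14 arrays.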
